A study of Saccharomyces cerevisiae with 6 samples.

Results

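Introns of 10 meiotic genes were followed in dividing yeast cells that had not been sent into meiosis. The genes were chosen by name, as PCH2 (YBR186W), DMC1 (YER179W), HOP2 (YGL033W), MND1 (YGL183C), REC107 (YJR021C), REC114 (YMR133W), AMA1 (YGR225W), SPO22 (YIL073C), HFM1 (YGL251C) and MEI4 (YER044C-A). All their introns in the deposited counts were taken, which gave 11 introns among 309 introns of 298 genes. HOP2 has 2 introns and the other genes have 1 each. Many counts were low: the members' total reads over 6 libraries ranked from 227 to 296 among the 309 introns, counting from the most read.

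RNA came from Saccharomyces cerevisiae by MPE-seq, multiplexed primer extension sequencing, in which pooled primers downstream of introns start cDNA synthesis and each read shows a spliced or an unspliced transcript. The wild type group (WT, strain EJS1) and the mutant group (prp2-1, strain EJS7) had 3 libraries each, called A, B and C. The prp2-1 allele is a temperature-sensitive mutation of Prp2, the ATPase that readies the spliceosome for the first catalytic step. Both groups grew in rich YPD medium at 25 °C to mid-log phase and were then held at 37 °C for 15 minutes, so WT cells also had the heat step, and 10 µg of RNA entered each library. Each genotype was 1 strain, so prp2-1 and any other difference between EJS1 and EJS7 cannot be told apart. The labels do not say whether the libraries of a group came from separate cultures, so the spread between these libraries may be technical. The p-values measure that spread, partly pooled over introns by the tests. For unspliced reads it was pooled almost wholly, so those p-values do not measure each intron's own spread.

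In meiosis, programmed DNA breaks made by Spo11 are repaired from the homologous chromosome. Rec114, Mei4 and Rec107 (also called Mer2) act together in making the breaks, and Dmc1, with its helpers Hop2 and Mnd1, carries out strand exchange. Hfm1 (Mer3) is a helicase and Spo22 (Zip4) a scaffold of the crossover pathway, Pch2 is an ATPase of the meiotic checkpoint, and Ama1 activates the anaphase-promoting complex in meiosis. In dividing cells many of these genes are repressed through Ume6, which binds the URS1 promoter element. A further control is splicing: the meiosis-specific protein Mer1 binds an enhancer in the introns of REC107, AMA1, HFM1 and SPO22 and aids recognition of their weak 5′ splice sites.

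The introns' letters, from the R64 genome, are shown first because the members differ at the splice sites. In each line below the capitals mark the first 6 bases (the 5′ splice site), the 7 bases closest to the branch site consensus, and the last 3 bases. The first 4 lines are the introns known to depend on Mer1, and the last 3 are introns with the consensus GTATGT that were spliced very differently in WT. They lie at chrX:469184-469263 on the minus strand (REC107), chrVII:946328-946420 on the plus strand (AMA1), chrVII:31427-31578 on the minus strand (HFM1) and chrIX:225810-225899 on the minus strand (SPO22). The last 3 lie at chrVII:436313-436374 on the plus strand (HOP2 intron 2), chrXIII:537449-537564 on the plus strand (REC114) and chrVII:157200-157282 on the minus strand (MND1).
REC107: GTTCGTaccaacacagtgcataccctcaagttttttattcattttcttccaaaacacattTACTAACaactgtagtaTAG
AMA1: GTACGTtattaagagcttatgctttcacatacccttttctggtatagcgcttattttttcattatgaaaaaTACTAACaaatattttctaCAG
HFM1: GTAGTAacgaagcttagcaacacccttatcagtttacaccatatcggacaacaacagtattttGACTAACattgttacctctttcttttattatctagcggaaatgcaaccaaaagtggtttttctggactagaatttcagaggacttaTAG
SPO22: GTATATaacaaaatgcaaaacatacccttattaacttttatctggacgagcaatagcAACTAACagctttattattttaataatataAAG
HOP2 intron 2: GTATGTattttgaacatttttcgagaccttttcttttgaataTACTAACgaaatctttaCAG
REC114: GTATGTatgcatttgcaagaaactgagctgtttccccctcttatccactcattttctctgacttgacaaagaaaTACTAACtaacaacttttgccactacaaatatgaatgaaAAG
MND1: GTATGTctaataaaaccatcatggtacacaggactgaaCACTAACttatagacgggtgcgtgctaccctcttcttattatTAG

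The other introns lie at chrII:602104-602216 on the plus strand (PCH2), chrV:548553-548644 on the plus strand (DMC1), chrVII:435680-435749 on the plus strand (HOP2 intron 1) and chrV:239624-239711 on the minus strand (MEI4). All 11 lie within coding sequence, start with GT and end with AG. They are short, from 62 to 152 bases with a median of 90, against a median of 139 over 279 introns that could be placed on the genome and 98 over the 178 of these outside ribosomal protein genes. The consensus GTATGT opens 5 of the 11, and these were PCH2, DMC1, HOP2 intron 2, MND1 and REC114. Over all placed introns it opens 204 of 279 (73.1%). MEI4 and AMA1 start with GTACGT, which opens 9.32% of placed introns. The start of REC107 is shared with 1 other placed intron, while the starts of HOP2 intron 1 (GTTAAG), SPO22 (GTATAT) and HFM1 (GTAGTA) each occur in 1 placed intron. The branch consensus TACTAAC is in 7 of the 11 members and in 222 of 279 placed introns (79.6%). PCH2 and MND1 have CACTAAC, HFM1 has GACTAAC and SPO22 has AACTAAC. A stop codon in frame with the upstream coding sequence lies inside 10 of the 11 introns, DMC1 being the exception, and inside 266 of 279 placed introns (95.3%).

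The Mer1 enhancer letters were searched on the transcribed strand as ACACCCTC, ACACCCTT, ATACCCTC and ATACCCTT. They occur in 4 of the 11 members, which are the 4 introns known to depend on Mer1. The enhancer is known from these introns, so the match is no independent result. REC107 holds ATACCCTC from base 20 of the intron, SPO22 holds ATACCCTT from base 22 and AMA1 the same letters from base 29, and HFM1 holds ACACCCTT from base 20. Over all placed introns 7 of 279 (2.51%) hold 1 of these spellings. The 3 outside the members, named after their values were seen, are RPL2A, YIL177C and YJL225C. RPL2A starts with GTATGT and had 7271 spliced and 226 unspliced reads in WT, 3.01% unspliced. YJL225C had 3 reads in WT and YIL177C had 0 in both groups.

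The libraries held 1612685, 1983661 and 2516774 reads in WT A, B and C and 1845258, 2671271 and 2269285 in prp2-1 A, B and C. Intervals below are exact (Clopper-Pearson) at 95% and, like the limits set by a count of 0 (3 counts of the total), cover counting error only. The groups stood apart at a mating-type gene. HMRA1 intron 1, whose sequence MATA1 shares, so that reads of both cannot be told apart, had 4777, 5445 and 6361 spliced reads in WT A, B and C and 6, 0 and 2 in prp2-1. Mating type is not in the labels, and the part of this difference in the results below was not tested. REC102, SAE3 and SPO1, the other meiotic genes looked at, gave 29 reads over all 6 libraries, from 3 to 8 per library. They went different ways: SAE3 had 1, 0 and 2 reads in WT A, B and C and 6, 3 and 3 in prp2-1, SPO1 had 2, 2 and 2 and then 0, 0 and 1, and REC102 had 0, 3 and 4 and then 0 in each.

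Taken as a sum, the 11 introns had 344 spliced and 510 unspliced reads in WT and 145 spliced and 1973 unspliced reads in prp2-1. In WT the sums were 196, 278 and 380 reads in A, B and C, or 122, 140 and 151 counts per 1000000 reads of the library (CPM). In prp2-1 they were 486, 615 and 1017 reads, or 263, 230 and 448 CPM. REC114 alone supplied 230, 329 and 576 of the unspliced reads in prp2-1 A, B and C. In bulk RNA, fewer cells with a transcript and less transcript per cell cannot be told apart.

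**Figure D1:**
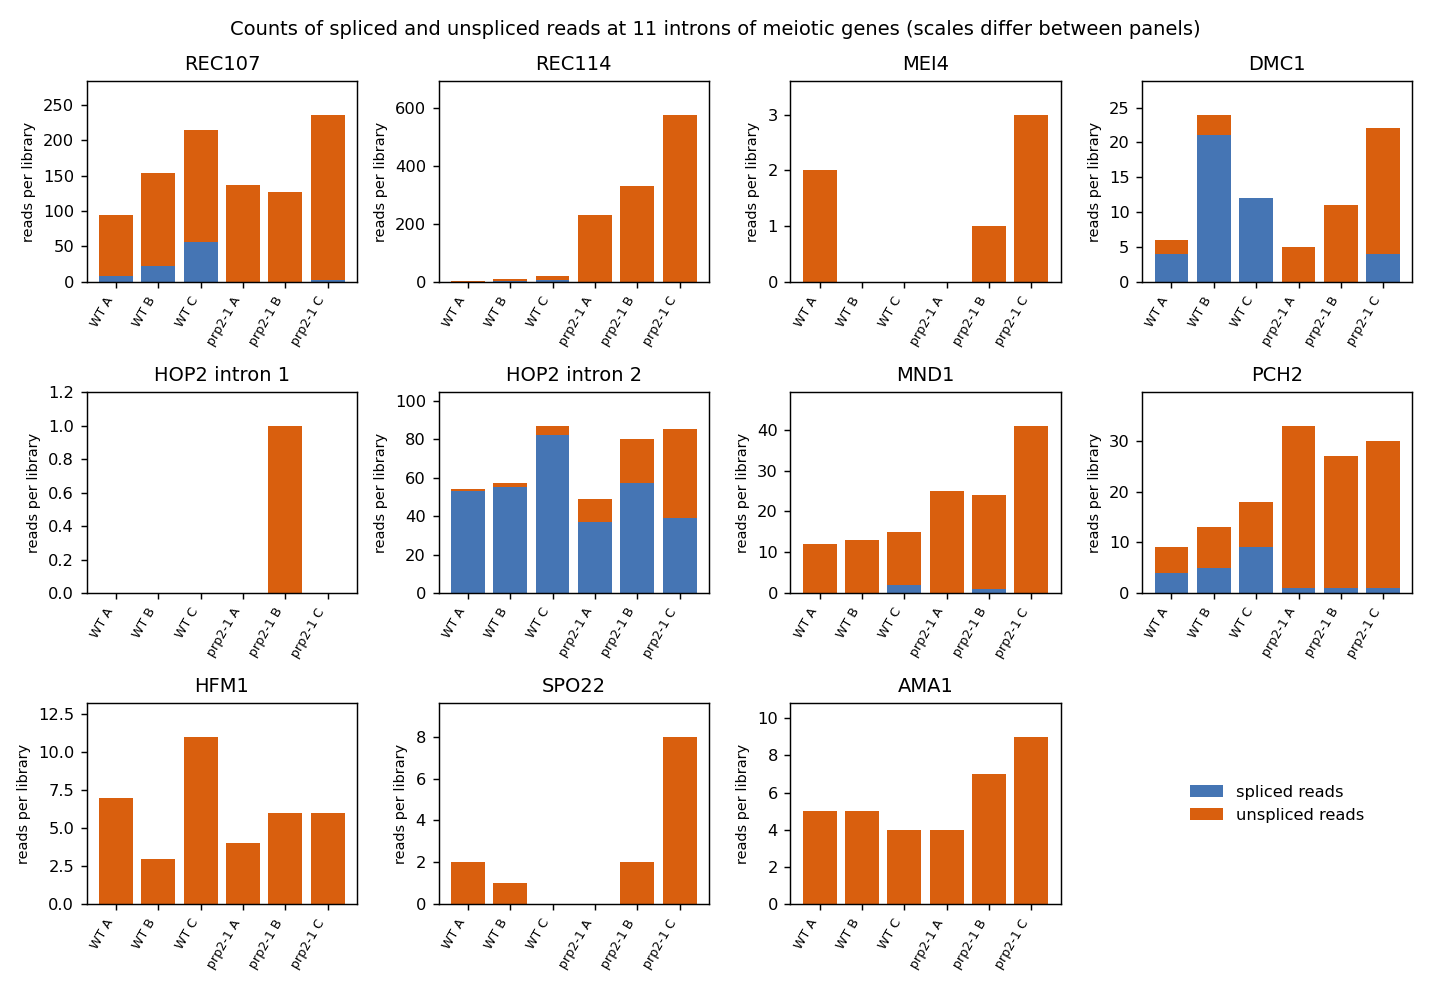
Reads per library (vertical axis, scale set per panel) at the 11 introns, with spliced reads in blue and unspliced reads stacked in orange, for WT A to C and prp2-1 A to C. REC114 goes from 4 to 19 reads in WT to 230 to 577 in prp2-1, HOP2 intron 2 keeps most of its spliced reads, and MEI4, HOP2 intron 1, HFM1, SPO22 and AMA1 show no spliced read.

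Testing needed a mean of at least 10 reads per library, spliced and unspliced summed. This minimum kept 6 members, PCH2, DMC1, HOP2 intron 2, MND1, REC107 and REC114, among 274 introns. Each of the 6 also had a mean of at least 10 in WT and in prp2-1 taken alone. The other 5 members, HOP2 intron 1, AMA1, SPO22, HFM1 and MEI4, are given by their counts. An intron is said below to have risen, fallen or changed where the edgeR quasi-likelihood test gave a Benjamini-Hochberg adjusted p under 0.05 over the 274 introns, and every log2 change is prp2-1 over WT.

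The comparison between strains asked how far splicing and level of these transcripts depend on Prp2. The ratio of unspliced to spliced reads rose in 5 of the 6 tested members, REC114, DMC1, REC107, PCH2 and HOP2 intron 2. MND1 was not called. Of all 274 introns 93.4% were called higher, so the members' count is near the background. Their median log2 change was 4.67, against 4.64 over all tested introns and 5.42 over the 164 other tested introns outside ribosomal protein genes. Without prp2-1 replicate C these medians were 6.03, 4.47 and 5.30. In that fit REC107, REC114 and DMC1 had 0 spliced reads left in prp2-1, so the sizes of their changes were not measured. The value of 6.03 therefore gives no firm order of the members' median against that of the 164.

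REC107, whose product binds the chromosome axis and prepares break formation, was the best measured of the introns known to depend on Mer1. It had 9, 23 and 56 spliced and 86, 130 and 158 unspliced reads in WT A, B and C, against 0, 0 and 3 spliced and 136, 127 and 233 unspliced reads in prp2-1. The WT libraries were 90.5%, 85.0% and 73.8% unspliced, with intervals of 82.8 to 95.6, 78.3 to 90.2 and 67.4 to 79.6. Most REC107 reads were unspliced in every WT library, yet each also had spliced reads. The unspliced percent was 83.1% ± 8.50 in WT and 99.6% ± 0.734 in prp2-1 (mean ± SD, n = 3 libraries, as for later group values), and the groups did not overlap. The log2 change of the ratio was 4.96 ± 0.78 (SE; adjusted p = 1.95e-06, edgeR), and 7.68 without prp2-1 replicate C, the only prp2-1 library with spliced reads. By summed reads the ratio was 38.9-fold higher, with a counting interval of 12.7 to 193.

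Spliced reads of REC107 fell by 4.74 on the log2 scale (adjusted p = 0.00105, edgeR), and fell by 7.85 without prp2-1 replicate C. The log2 change was -4.10 and -4.11 without WT replicate C and prp2-1 replicate B. Its unspliced reads differed by a log2 of 0.33 (adjusted p = 0.314, edgeR), which was 0.57 without prp2-1 replicate B and then passed the test (adjusted p = 0.0484). Total reads in CPM were 58.9, 77.1 and 85.0 in WT A, B and C and 73.7, 47.5 and 104 in prp2-1, so the groups overlapped. The log2 difference in total was 0.05 ± 0.29 (adjusted p = 0.905, edgeR), and its sign changed without WT replicate A (-0.11) or prp2-1 replicate C (-0.27).

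REC114, a partner of Rec107 and Mei4 in break formation, had the largest rise in total reads of all 274 tested introns. It had 0, 3 and 6 spliced and 4, 6 and 13 unspliced reads in WT A, B and C. In prp2-1 it had 0, 0 and 1 spliced and 230, 329 and 576 unspliced reads. Total reads in CPM were 2.48, 4.54 and 7.55 in WT and 125, 123 and 254 in prp2-1, far apart in every pair of libraries. The group values were 4.86 ± 2.55 and 167 ± 75.3 CPM, a log2 change of 5.05 ± 0.44 (adjusted p = 1.56e-05, edgeR). Without each library in turn the change lay between 4.61 and 5.54 and stayed past the threshold.

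The gain in REC114 was of unspliced reads. Unspliced reads rose by 5.51 on the log2 scale (adjusted p = 5.12e-36, edgeR), and spliced reads differed by -2.84 (adjusted p = 0.137, edgeR). The first p-value rests on a spread pooled over introns and not on that of REC114 alone. Total reads, with a change of 5.05 and a similar SE (0.44 against 0.42), had an adjusted p of 1.56e-05 (edgeR). The unspliced percent was 100%, 66.7% and 68.4% in WT A, B and C and 100%, 100% and 99.8% in prp2-1. WT A, with 4 reads, overlapped the mutant libraries. The ratio rose by 8.31 ± 1.10 on the log2 scale (adjusted p = 1.39e-07, edgeR), and by 9.67 without prp2-1 replicate C, whose 1 spliced read was the last in the mutant. In a random draw of fewer reads no spliced read of REC114 was left, and its ratio was not called (edgeR adjusted p = 1). By summed reads of the full counts the ratio was 444-fold higher, with a counting interval from 55.6 to 19474. The REC114 intron lies near the end of the gene, after 1242 coding bases and before 45. The next gene on the same strand, ERG29, starts its coding sequence 228 bases downstream of that of REC114, and no annotated gene overlaps it.

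MEI4, the third partner in break formation, had 2, 0 and 0 reads in WT A, B and C and 0, 1 and 3 in prp2-1, all unspliced. With 0 spliced reads among 6, the counts allow a spliced share of up to 50%, so splicing of MEI4 was not measurable at this depth.

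Among the strand exchange genes most WT reads at the DMC1 intron and HOP2 intron 2 were spliced, while most at the MND1 intron were unspliced. DMC1, the meiotic recombinase, had 4, 21 and 12 spliced and 2, 3 and 0 unspliced reads in WT A, B and C. In prp2-1 it had 0, 0 and 4 spliced and 5, 11 and 18 unspliced reads. The direction was the same in every pair of libraries, at 15.3% ± 16.8 unspliced in WT and 93.9% ± 10.5 in prp2-1. The log2 change of the ratio was 5.86 ± 1.37 (adjusted p = 0.000312, edgeR). It was 6.55, 5.25 and 8.71 without WT replicate A, WT replicate C and prp2-1 replicate C. The last value rests on 0 spliced reads in prp2-1, so its size was not measured. Its total reads in CPM were 6.86 ± 4.57 in WT and 5.51 ± 3.69 in prp2-1, with WT replicate B at 12.1 and the other WT libraries under 5. The log2 difference in total was -0.26 (adjusted p = 0.749, edgeR), and its sign changed without WT replicate B (0.38) or prp2-1 replicate A (0.02).

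In DMC1 spliced reads fell by 3.19 and unspliced reads rose by 2.53 on the log2 scale (adjusted p = 0.0184 and 0.00334, edgeR). The fall of spliced reads was not called when WT replicate B (edgeR adjusted p = 0.0832) or prp2-1 replicate B (0.0634) was left out, with a log2 change of -2.55 in both. Without prp2-1 replicate C, the only prp2-1 library with spliced reads, the change was -6.68, a size that was not measured. The rise of unspliced reads was not called when prp2-1 replicate C was left out (edgeR adjusted p = 0.0538), and was 3.20 and 1.82 without WT replicates B and C.

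HOP2 intron 2 was the best spliced member in both strains. Hop2 acts with Mnd1 to stabilise pairing during strand exchange. It had 53, 55 and 82 spliced and 1, 2 and 5 unspliced reads in WT A, B and C, and 37, 57 and 39 spliced and 12, 23 and 46 unspliced reads in prp2-1. The unspliced percent was 1.85%, 3.51% and 5.75% in WT and 24.5%, 28.8% and 54.1% in prp2-1, so each mutant library was above each WT library. Most reads remained spliced in prp2-1 A and B. The log2 change of the ratio was 3.72 ± 0.73 (adjusted p = 4.25e-05, edgeR), and 3.10 without prp2-1 replicate C. HOP2 intron 2 stood 185th of 274 by size of this change.

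In HOP2 intron 2 unspliced reads rose by 3.18 on the log2 scale (adjusted p = 1.01e-06, edgeR), and by 2.56 without prp2-1 replicate C. Spliced reads fell by 0.63 (adjusted p = 0.0271, edgeR). The fall of spliced reads was not called when WT A, B or C was left out (edgeR adjusted p = 0.0935, 0.0837 and 0.0986), when prp2-1 C was (0.0543), or with DESeq2 (0.179). Total reads in CPM were 32.3 ± 3.10 in WT and 31.3 ± 5.58 in prp2-1 (log2 difference -0.003, adjusted p = 0.994, edgeR). The sign of that difference changed in several alternatives, to at most 0.11 on the log2 scale. AGA2 lies 168 bases downstream of HOP2 on the opposite strand, and strand use in the counting was not given in the sources used here. HOP2 intron 1, of the same gene, had 1 read in all, unspliced, in prp2-1 replicate B. What its primer could have detected is not known from the counts, so the 2 introns of HOP2 could not be compared.

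MND1, which forms a complex with Hop2, had 0, 0 and 2 spliced and 12, 13 and 13 unspliced reads in WT A, B and C. In prp2-1 it had 0, 1 and 0 spliced and 25, 23 and 41 unspliced reads. It was mostly unspliced in every library, at 95.6% ± 7.70 in WT and 98.6% ± 2.41 in prp2-1, although its intron opens with the consensus GTATGT. With 3 spliced reads in all, the ratio could not be resolved: the log2 change was 1.94 ± 2.05 (adjusted p = 0.366, edgeR). It was -0.89 without WT replicate C, which held both WT spliced reads, and 4.01 without prp2-1 replicate B. The counting interval of the ratio ran from 0.234-fold to 279-fold. Spliced reads differed by -0.87 on the log2 scale (adjusted p = 0.741, edgeR), and by 1.79 without WT replicate C. The MND1 intron directly follows the start codon, after 3 coding bases.

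PCH2, the checkpoint ATPase, had 4, 5 and 9 spliced and 5, 8 and 9 unspliced reads in WT A, B and C, and in prp2-1 A, B and C 32, 26 and 29 unspliced reads with 1 spliced read in each library. Its unspliced percent was 55.7% ± 5.77 in WT and 96.6% ± 0.337 in prp2-1, with no overlap. The log2 change of the ratio was 4.38 ± 1.08 (adjusted p = 0.000529, edgeR), and it was not called in the random draw (adjusted p = 0.0802). Unspliced reads rose by 1.89 (adjusted p = 0.000379, edgeR) and spliced reads fell by 2.54 on the log2 scale (adjusted p = 0.0188, edgeR). The fall of spliced reads was not called when WT A or C was left out (edgeR adjusted p = 0.0529 and 0.0538), nor when prp2-1 A, B or C was (0.0523, 0.0511 and 0.0639), nor with DESeq2 (0.155).

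**Figure D2:**
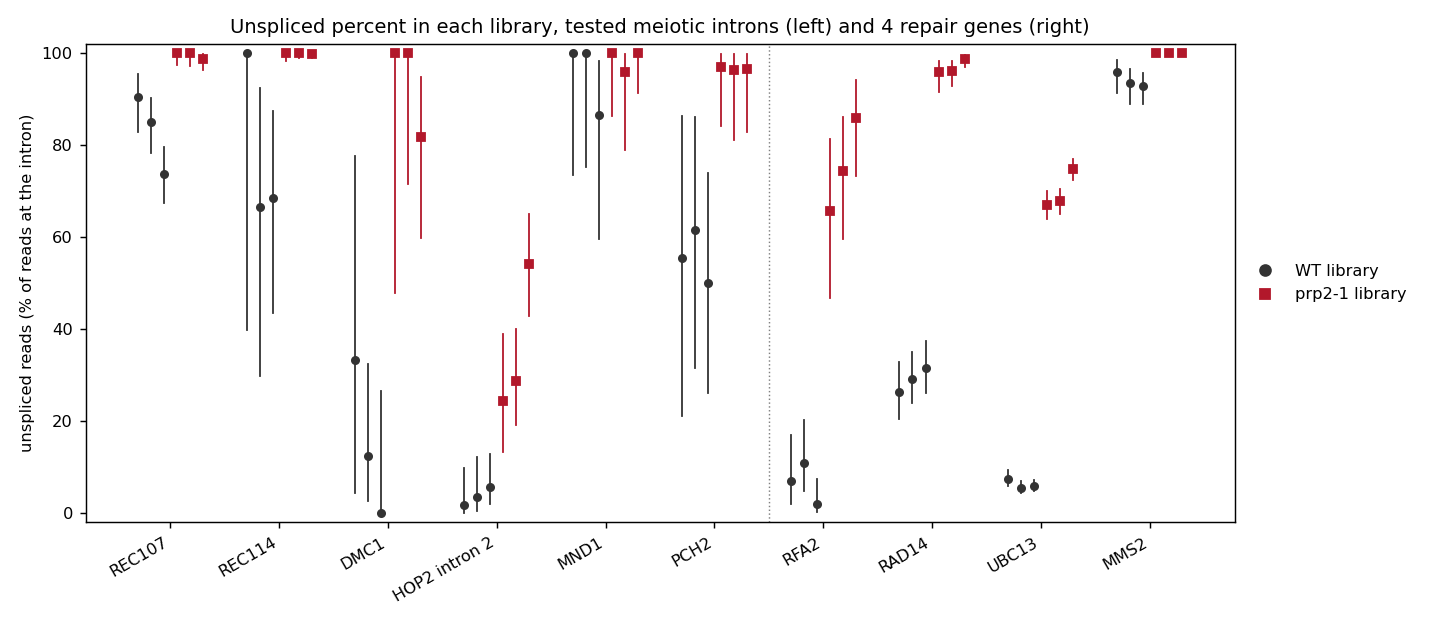
Unspliced reads as a percent of all reads at the intron (vertical axis) in each library, for the 6 tested meiotic introns and, right of the dotted line, 4 repair genes; black circles are WT A to C, red squares prp2-1 A to C, left to right, and lines are exact 95% intervals. PCH2, DMC1, HOP2 intron 2 and REC107 do not overlap between groups, while REC114 and MND1 each have a WT library at 100%.

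The groups did not overlap in unspliced percent in 4 of the 6 tested members, PCH2, DMC1, HOP2 intron 2 and REC107, against 92.0% of all tested introns. REC114 and MND1 overlapped through WT libraries that had no spliced read. The WT levels of the members were mostly high. From summed WT reads, the 6 members had a median of 63.4% unspliced, from 4.04% in HOP2 intron 2 to 95% in MND1. The median was 3.85% over all tested introns and 10.6% over the 164 others outside ribosomal protein genes. In prp2-1 the medians were 97.8%, 44.9% and 90.4%. MND1, REC107, REC114, PCH2, DMC1 and HOP2 intron 2 held ranks 15, 24, 28, 34, 86 and 133 of 274 by WT level. These shares are descriptions, with no test.

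In summed reads the members differed by their 5′ splice site letters. The 5 members that open with GTATGT had 256 spliced and 96 unspliced reads in WT, 27.3% unspliced, of which HOP2 intron 2 gave 190 spliced and 8 unspliced. Their median was 55.0%, since PCH2, REC114 and MND1 were at that level or above. The other 6 had 88 spliced and 414 unspliced reads, 82.5% unspliced. All of these spliced reads and 374 of the unspliced were from REC107, so the sums largely compare HOP2 intron 2 with REC107. In prp2-1 the first set had 142 spliced and 1426 unspliced reads and the second 3 and 547. Among other introns outside ribosomal protein genes with at least 10 WT reads, the 120 with GTATGT had a median of 7.51% unspliced in WT and the 35 with other letters 48.5%. MND1 and REC114 were highly unspliced despite the consensus letters. Introns here share libraries and differ in depth, and these medians carry no test.

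**Figure D3:**
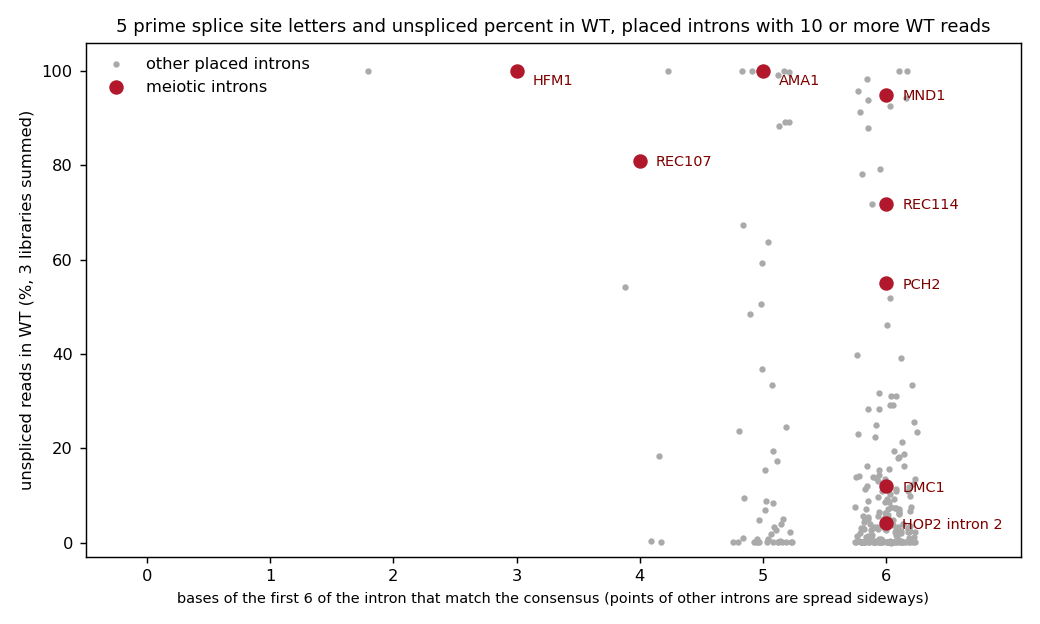
Unspliced percent in WT (vertical axis, 3 libraries summed) against the number of the first 6 bases of the intron that match the consensus (horizontal axis), for placed introns with at least 10 WT reads; red points are meiotic introns and grey points all others. HFM1, REC107 and AMA1, with mismatches, sit at 81.0% or above, and the 5 members with 6 matches range from 4.04% to 95%.

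The other introns known to depend on Mer1 were found in unspliced form only. AMA1 had 5, 5 and 4 reads in WT A, B and C and 4, 7 and 9 in prp2-1. HFM1 had 7, 3 and 11 reads in WT and 4, 6 and 6 in prp2-1, and SPO22 had 2, 1 and 0 in WT and 0, 2 and 8 in prp2-1. No spliced read was seen in any library. In WT that is 0 of 14 reads for AMA1, which allows a spliced share of up to 21.4%, and 0 of 21 for HFM1 (up to 14.3%). At the 3 WT reads of SPO22 the rule of 3 counts sets no limit, and the exact interval was 29.2% to 100% unspliced. Over AMA1, HFM1 and SPO22 together it was 0 of 38 in WT, which allows up to 7.89%. With the prp2-1 libraries added, where spliced reads are fewer at most introns, it was 0 of 84. REC107 had 88 spliced reads among 462 in WT, or 19.0%, and the difference from the other introns was not tested. With REC107 included, the 4 introns had 88 spliced and 412 unspliced reads in WT and 3 and 542 in prp2-1.

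Introns without any spliced read were few in the data as a whole. Of 291 introns with at least 5 reads over the 6 libraries, 17 had none, and 4 of these were members (AMA1, HFM1, SPO22 and MEI4). These 4 had 34, 37, 13 and 6 reads in all, against a median of 6524 over all 309 introns. A lack of spliced reads is likelier at so few reads, and no comparison at like depth was made. With no spliced read of AMA1, HFM1 or SPO22 in WT, a loss of splicing in prp2-1 could not be measured for them. When every intron with at least 1 read entered the test, none of these 3, MEI4 or HOP2 intron 1 was called in any of the 4 comparisons. Their adjusted p for total reads lay between 0.382 and 0.715 (edgeR).

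In total reads 3 of the 6 tested members were higher in prp2-1, REC114, PCH2 and MND1, and 0 were lower. Over all tested introns 19.7% were higher and 23.7% lower. The members' median log2 change was 0.55, against -0.004 over all tested introns and -0.19 over the others outside ribosomal protein genes. With reads scaled to introns over 98% unspliced in WT these medians were 0.23, -0.30 and -0.48. With a minimum mean of 30 reads, which kept 3 members, the members' median was 0.057. Without prp2-1 replicate C it was 0.32. Total reads in CPM did not overlap between groups in the same 3 members, against 56.2% of all tested introns.

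PCH2 had 5.58, 6.55 and 7.15 CPM in total in WT A, B and C and 17.9, 10.1 and 13.2 in prp2-1. This log2 change was 1.09 ± 0.32 (adjusted p = 0.0230, edgeR). MND1 had 7.44, 6.55 and 5.96 CPM in WT and 13.5, 8.98 and 18.1 in prp2-1, a log2 change of 1.06 ± 0.34 (adjusted p = 0.0327, edgeR). In both genes each prp2-1 library was above each WT library, on 9 to 41 reads per library. PCH2 was not called when WT A, B or C was left out (edgeR adjusted p = 0.0940, 0.0743 and 0.0659), when prp2-1 A was left out (0.0885), or with DESeq2 (0.189). MND1 was not called when WT A, B or C was left out (edgeR adjusted p = 0.0795, 0.0924 and 0.116), when prp2-1 A or C was left out (0.0625 and 0.101), or with DESeq2 (0.217). With reads scaled to introns almost wholly unspliced in WT, the median of all tested introns moved by -0.30 on the log2 scale and REC114 alone of the members was called.

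**Figure D4:**
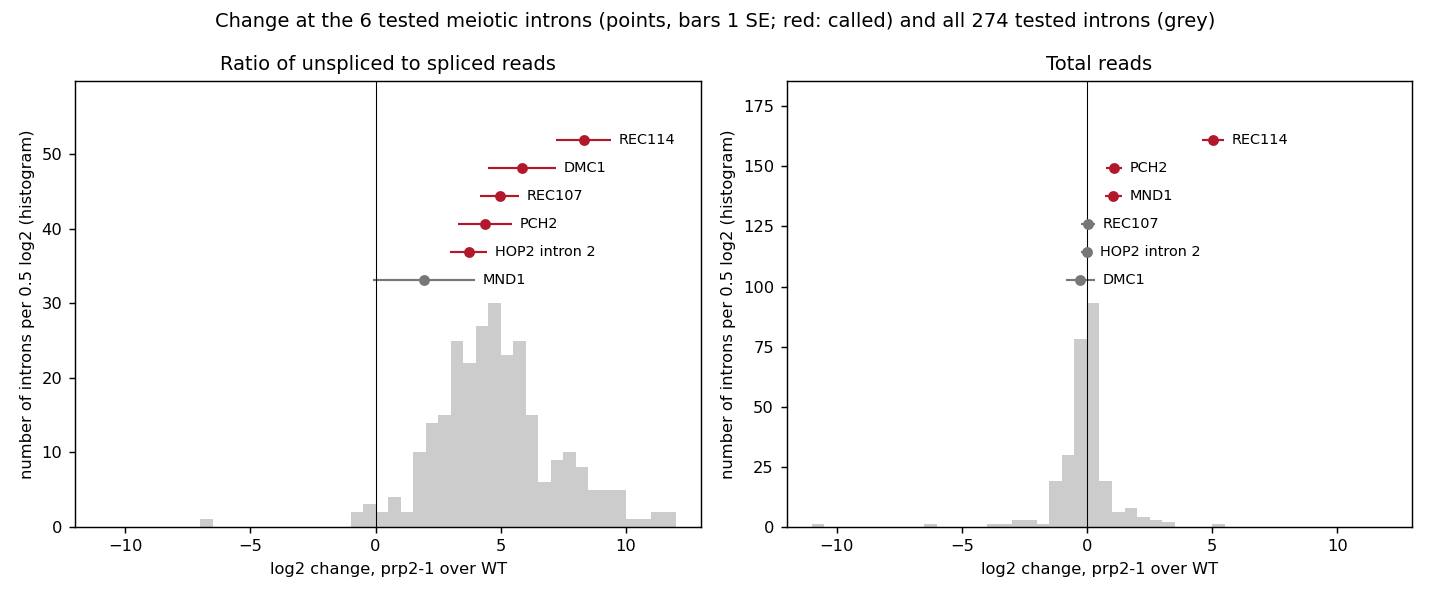
Log2 change, prp2-1 over WT (horizontal axis), of the unspliced-to-spliced ratio (left) and of total reads (right); the grey histogram counts all 274 tested introns per 0.5 log2, and points are the 6 tested meiotic introns with bars of 1 SE, red where called (their height carries no value). The ratios sit within the histogram, while REC114 at 5.05 in total reads lies at its far right.

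Taken apart by read type, unspliced reads rose in 5 of the 6 tested members, all but REC107, and in 90.9% of all tested introns. The members' median log2 change was 2.21, against 3.02 over all, and was 3.19 with the minimum mean of 30 reads and 1.18 in the random draw. In MND1 this change was 1.11 (adjusted p = 0.0215, edgeR), and the call was lost without WT replicate C (adjusted p = 0.0799) or prp2-1 replicate C (0.117), and with reads scaled to introns almost wholly unspliced in WT (0.0692). The p-values of unspliced reads, that of MND1 included, rest on a spread pooled over introns. Spliced reads fell in 4 of the 6, PCH2, DMC1, HOP2 intron 2 and REC107, and in 57.7% of all tested introns. The median was -2.69 over the members, -0.91 over all and -2.67 over the others outside ribosomal protein genes. It was -3.60 over the members without prp2-1 replicate C, where REC107, REC114 and DMC1 had 0 spliced reads left in prp2-1. Without each library in turn 3 to 6 members were called higher in unspliced reads, the lowest being without prp2-1 replicate C. In spliced reads 2 or 3 members were called lower, 3 without prp2-1 replicate A and 2 without any other library.

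The order of total levels changed between the strains through REC114. In WT the means in CPM were 73.7 ± 13.4 for REC107, 32.3 ± 3.10 for HOP2 intron 2, 6.86 ± 4.57 for DMC1, 6.65 ± 0.745 for MND1, 6.43 ± 0.793 for PCH2 and 4.86 ± 2.55 for REC114. The last 4 overlapped in their spread, whereas REC107 and HOP2 intron 2 stood clear of each other and of the rest. In prp2-1 the order was REC114 (167 ± 75.3), REC107 (75.1 ± 28.3), HOP2 intron 2 (31.3 ± 5.58), PCH2 (13.7 ± 3.91), MND1 (13.5 ± 4.54) and DMC1 (5.51 ± 3.69). There PCH2 and MND1 overlapped, and so did MND1 and DMC1, with DMC1 at 9.69 CPM in replicate C and MND1 at 8.98 in B. The SD ranges of REC114 and REC107 met, although the lowest REC114 library (123 CPM) was above the highest of REC107 (104). The untested introns had means of at most 3.41 CPM in WT and 2.92 in prp2-1. These are reads from primers that may differ in yield, so the order is of reads and not of RNA molecules.

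URS1, the element through which Ume6 acts, was searched as its core GGCGGC on either strand (GCCGCC on the other) within 300 bases before each start codon. It occurred in 6 of the 10 genes, DMC1, HOP2, MEI4, PCH2, REC114 and SPO22, and in 313 of 6007 protein coding genes (5.21%). Windows of 22 bases around the core are shown for REC114 and PCH2, which rose in total reads, and for HOP2 and DMC1, which were not called. They read 5′ to 3′ on the gene's strand, with the core in capitals, from R64 at chrXIII:536107-536128, chrII:600450-600471, chrVII:435488-435509 and chrV:548275-548296, all on the plus strand.
REC114 promoter: acaaggtgGGCGGCtaacttat
PCH2 promoter: ataaggtgGGCGGCaaatctac
HOP2 promoter: atgtcctcGGCGGCtaaatttt
DMC1 promoter: ggaaaataGCCGCCcaaggata
The core was present both in genes whose total reads rose and in genes that were not called. MND1, which also rose, had no such letters in its window. The rises of PCH2 and MND1 were not called in several alternatives, and a role of URS1 in these changes was not tested. A match is a description of the letters and shows no binding.

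Repair genes that dividing cells use were measured at higher counts in most cases. The ratio rose in all 4 that were listed, and in 93.4% of all 274 tested introns. MMS2, a partner of the ubiquitin-conjugating enzyme Ubc13 in tolerance of DNA damage, had 6, 13 and 18 spliced and 141, 185 and 232 unspliced reads in WT A, B and C. In prp2-1 it had 0, 1 and 0 spliced and 1037, 1657 and 3471 unspliced reads. Like REC114 it was mostly unspliced in WT (94.1% ± 1.65) and higher in total in prp2-1, by 3.26 on the log2 scale (adjusted p = 8.51e-05, edgeR), rank 3 of 274, and by 2.65 without prp2-1 replicate C. The ratio of MMS2 changed by 8.14 (adjusted p = 1.01e-10, edgeR), and by 10.19 and 7.13 without prp2-1 replicates B and C, where replicate B held the only spliced read in prp2-1. UBC13 went from 6.36% ± 1.03 unspliced to 67.1%, 67.8% and 74.8% in prp2-1 A, B and C, and RAD14, of nucleotide excision repair, from 29.0% ± 2.61 to 96.9% ± 1.64. RFA2, a subunit of the single-stranded DNA binding protein RPA, was 7.02%, 10.8% and 2.08% unspliced in WT and 65.6%, 74.5% and 86.0% in prp2-1. Its total reads fell by 0.92 on the log2 scale (adjusted p = 0.00776, edgeR), and the call was lost with DESeq2 (adjusted p = 0.0569).

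The members did not share 1 pattern. Their median log2 ratio of unspliced over spliced reads (pseudocount 0.5) was 1.73, 0.76 and 0.53 in WT A, B and C and 5.05, 4.33 and 5.18 in prp2-1. The Euclidean distance of single members from this profile over the 6 libraries ran from 1.89 for PCH2 to 13.95 for HOP2 intron 2. The 5 other tested introns closest to it were YRA1 (2.23), GCR1 (2.25), HNT2 (2.59), SCS22 (2.64) and NCE101 (2.86). YRA1, the gene of an mRNA export factor, was 79.3% ± 5.41 unspliced in WT and 95.9% ± 1.13 in prp2-1. GCR1, an activator of glycolytic genes, was 59.3% ± 0.195 and 98.2% ± 0.984. Their likeness is over 6 libraries, with no test.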

How the data were processed

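The authors deposited raw counts of spliced (mature) and unspliced (premature) reads per intron and library, with no normalization, and a count table of random draws from the same libraries. Per the submitters' processing notes the tools were fastp 0.19.5, HISAT2 2.2.1 and SAMtools, with build R64. Not given in the sources used here are the rule for assigning reads, the use of strand and the handling of duplicates. Headers for depth and draw in the drawn counts were read as interchanged, because the totals follow the other column; draw 1 at 800000 reads was used as an alternative.

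Library totals ranged from 1612685 to 2671271 reads. In edgeR 4.0.16 (R 4.3.3) the ratio was tested on both counts with terms for library, read type and read type by genotype. Total, unspliced and spliced reads were tested with library totals and TMM factors. Introns needed a mean of 10 reads, and p-values were adjusted over 274 introns. SEs were derived from the log2 change and the F statistic. The tests of the ratio and of total reads were checked on counts simulated with the same spread for every intron. The tests of unspliced and of spliced reads were not checked in this way. Alternatives used DESeq2 1.42.0, limma 3.58.1, other filters and scalings, a replicate block, and leaving out each library. Replicates differed by more than counting error (chi-square per degree of freedom 20.8 to 80.1). Sequences were read from the R64 genome with its annotation, introns of a gene numbered in the order of transcription, and 300 bases before the start codon served as promoter. All introns of the 10 genes are named, with repair genes, 3 further meiotic genes and the 5 introns of nearest profile. Members, lists and tests were chosen with earlier results of these data known.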

Additional observations from a re-analysis of the deposited data

How the results depend on the processing

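Of 330 alternative values for the tested members, 273 kept direction and side of the threshold, 42 lost the call, 1 gained it and 14 changed sign. The count of members called for the ratio (5) was 3 with a minimum mean of 30 reads, where 3 members remained testable, and 3 in the random draws. For total reads (3) it was 1 with DESeq2, the minimum of 30, the random draws and scaling to the 13 tested introns over 98% unspliced in WT, and 1 to 3 without each library. For unspliced reads (5) it was 2 with the minimum of 30 and 2 in the draws, and 3 to 6 without each library. For spliced reads (4) it was 2 with DESeq2, 2 with the minimum of 30, 1 in the draws, and 2 to 3 without each library. In the draws REC114 had 0 spliced reads and its ratio change of 6.02 had an adjusted p of 1, and PCH2 lost its call (0.0802, edgeR). Scaling to the introns over 98% gave 27 higher and 91 lower introns in total reads, against 54 and 65.

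Signs changed for MND1 without WT replicate C (ratio -0.89, spliced 1.79; ranges without each library -0.89 to 4.01 and -2.65 to 1.79), and for DMC1 total reads without WT replicate B (0.38) or prp2-1 replicate A (0.02; range -0.91 to 0.38). They changed for REC107 total reads without WT replicate A (-0.11) or prp2-1 replicate C (-0.27; range -0.27 to 0.29), in the draws (-0.021) and with the 98% scaling (-0.28). For HOP2 intron 2 total reads the values were 0.0020 with the minimum of 30, 0.027 with DESeq2 size factors, and 0.0025, 0.04, 0.11 and 0.02 without WT replicate A, WT replicate C, prp2-1 replicate A and prp2-1 replicate B (range -0.14 to 0.11). The cause of these shifts was not tested.

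The replicate letters did not count as pairs: libraries of the same letter correlated at 0.0924 to 0.272 in the ratio and -0.0869 to 0.263 in total reads. As a hint from the data, 6 of 6 libraries correlated best with their own letter in the ratio and 3 of 6 in total reads. With the replicate block, members called for spliced reads numbered 2 (HOP2 intron 2 0.0719 and PCH2 0.0770, edgeR adjusted p), and the DMC1 ratio change was 8.38. At 1 to 961 reads per member intron other than REC114, depth limits most of these values.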
